A study of Mus musculus with 4 samples.

Results

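The genes described here are the matrix metalloproteinases (MMPs), the ADAMTS proteases and the tissue inhibitors of metalloproteinases (TIMPs), measured in cells that adhered to plastic when pieces of mouse spleen were cultured. Genes were taken by name, as every single gene symbol of the arrays of the form Mmp, Adamts or Timp with its number, which gave 38 of 19761 genes and 73 of 45037 probe sets. They are 19 MMPs, 15 ADAMTS proteases and 4 TIMPs. A gene with several probe sets was represented by the brightest over the 4 arrays. A further 8 genes of these families in the RefSeq gene table (Adamts13, Adamts14, Adamts17, Adamts19, Mmp21, Mmp25, Mmp27 and Mmp28) were not analysed here.

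MMPs and ADAMTS proteases are zinc-dependent enzymes that cut the proteins between cells. MMPs are made as inactive precursors and cleave collagens, laminins, elastin and many other substrates, while ADAMTS proteases trim procollagens and split proteoglycans such as versican and aggrecan. TIMPs bind the active enzymes and block them. In the spleen, fibroblastic reticular cells lay down the matrix, and macrophages, neutrophils and stromal cells all make such proteases.

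The study compared splenic adherent cells that had grown into compact colonies (SACCs) with adherent cells that had stayed in a monolayer (controls), all of strain C57BL/6J. SACC replicate 1 had been moved to a serum-free medium for embryonic stem (ES) cells once colonies appeared, at about day 7 to 14 of culture. SACC replicate 2 was in plain medium, as were control replicates 1 and 2. The labels describe the starting medium of the spleen pieces as RPMI with 5% fetal bovine serum, and a spleen as cut into 6 pieces. Control replicate 1 is named as the counterpart of SACC replicate 1 (the ES pair) and control replicate 2 as that of SACC replicate 2 (the plain pair), so in the ES pair medium and colony form differ together. The labels do not state whether the 4 samples are from different mice or cultures, and the spread behind the p-values may be technical. That spread rests on the difference between the ratios of the 2 pairs, so any effect of the medium is part of it.

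Values are log2 expression on Affymetrix arrays, and a ratio is the SACC value minus the control value within a pair, so that 1 is 2-fold higher in SACCs. Array medians were 4.52 and 4.35 on the SACC arrays and 4.59 and 4.34 on the control arrays. A gene is called dim if all 4 of its values lay below the median of the array. The 10 macrophage and the 10 fibroblast markers examined were all above the median on every array, so both kinds of RNA were present in both groups. All 10 macrophage markers were lower in SACCs in both pairs, with summed signals (log2) of 14.29 and 14.58 in SACCs, against 15.71 and 15.81 in controls. All 10 fibroblast markers were higher, with summed signals of 16.00 and 15.69 in SACCs, against 14.83 and 14.02 in controls. Other lists moved as well. All 7 smooth muscle or pericyte markers were higher in both pairs, with medians of 1.23 and 0.77, summed signals of 14.47 and 13.67 in SACCs, against 13.84 and 13.39 in controls, and Rgs5 past the test. Of 7 mesothelial markers 5 were higher in both pairs, with summed signals of 9.16 and 9.18 in SACCs, against 6.87 and 7.26 in controls. Among these Wt1 had ratios of 3.84 and 2.63 and Upk3b of 2.94 and 0.86, while Msln, Muc16 and Krt19 were below the median on every array. The part of these shifts in the results below was not tested, and in such mixed samples fewer cells of a type and less RNA per cell cannot be told apart.

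In both pairs 22 of the 38 genes had higher and 8 lower levels in SACCs, against 30.4% and 34.7% of all genes. In limma's fit over both pairs, with the pair as a term and p-values adjusted by Benjamini-Hochberg across all probe sets, 7 of the 38 genes rose (Mmp2, Mmp3, Mmp10, Mmp23, Adamts3, Adamts4 and Adamts7) and 1 fell (Mmp12), at an adjusted p under 0.05. Of all genes 0.936% passed in the upward and 1.04% in the downward direction. At least 2-fold higher in both pairs were 15 of the 38, against 3.38% of all genes, and 1 was at least 2-fold lower in both, against 2.68%. Of the 38, 32 had a value above an array's median, and among all such genes the shares at 2-fold in both pairs were 5.06% and 4.02%. The median ratio of the 38 genes was 0.84 (ES pair) and 0.24 (plain pair), against -0.01 and -0.02 for all genes.

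The 8 calls lay close to the threshold, with adjusted p between 0.0476 and 0.0487, and 0.0476 was the smallest of the whole table. None of the 38 genes passed when arrays were first centred on their medians, or without the pair term. In these 2 limma fits 18 and 17 of them had an unadjusted p under 0.05. Over all 45037 probe sets 0 passed in either fit, and 7405 and 3497 had an unadjusted p under 0.05. The groups did not overlap for 24 of the 38 genes, 19 with both SACC values above both control values and 5 the other way, where 18.3% and 19.5% of all genes did so. These counts, and each statement on overlap, set levels across 2 tables that seem to have been normalized separately.

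**Figure D1:**
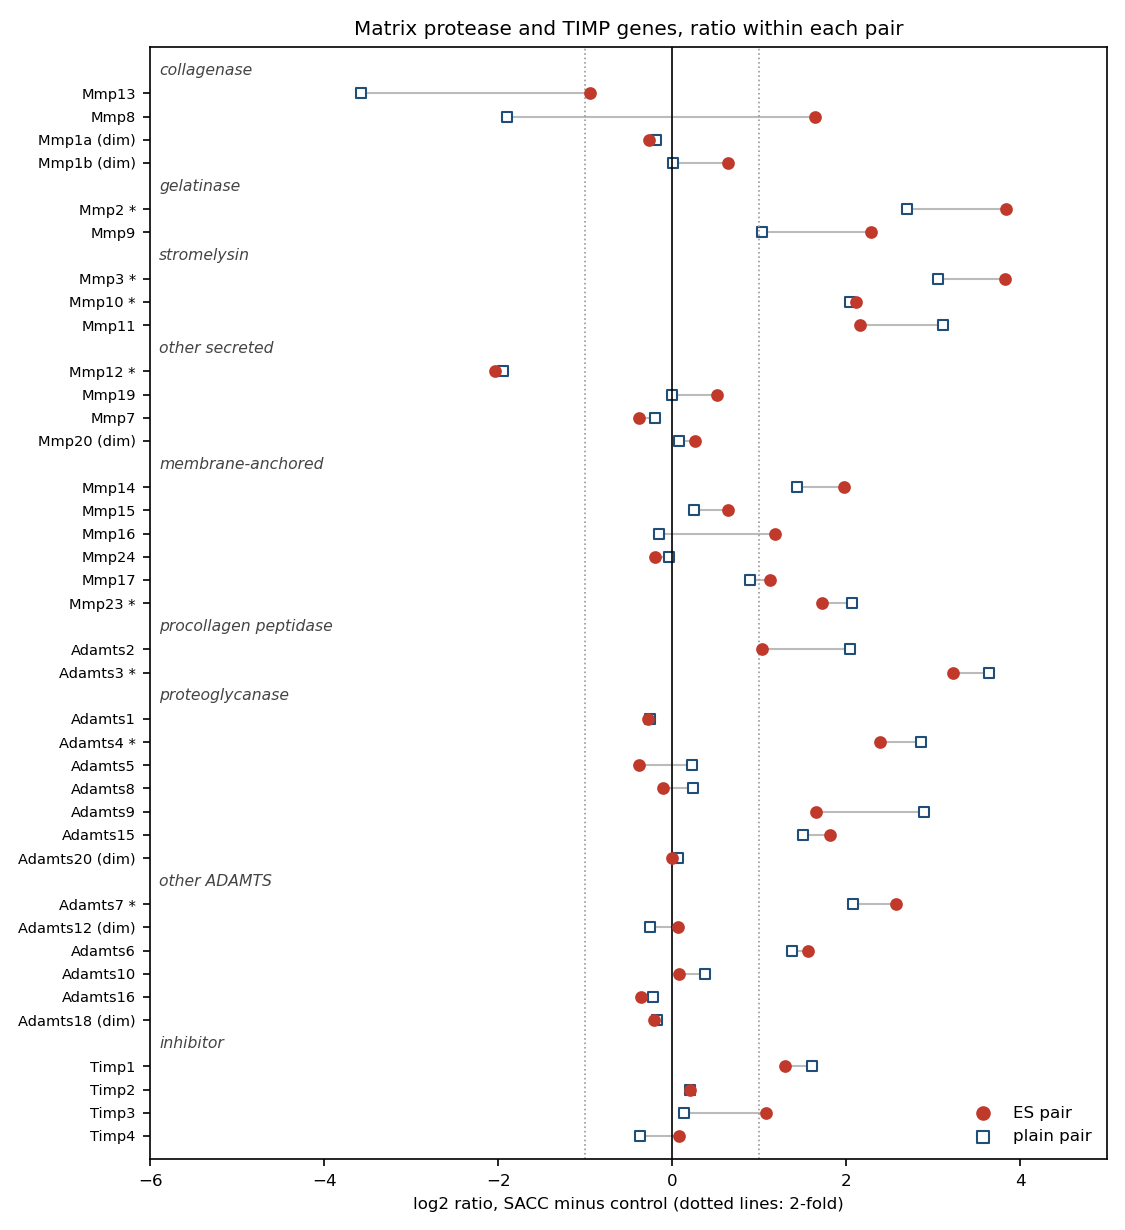
Log2 ratio of SACC to control for the ES pair (filled circles) and the plain pair (open squares) for all 38 genes, by role; an asterisk marks an adjusted p under 0.05 in limma's fit over both pairs and "dim" a gene below the median on all 4 arrays. Mmp2 and Mmp3 lie farthest to the right in the ES pair and Adamts3 in the plain pair, Mmp12 and Mmp13 lie to the left, and Mmp8 takes opposite sides.

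The gelatinases, which digest denatured and basement membrane collagen, were both higher in SACCs. Mmp2, the gelatinase made mainly by mesenchymal cells, had 12.55 in SACCs and 8.71 in controls of the ES pair, and 12.08 in SACCs and 9.38 in controls of the plain pair. It rose by 3.27 ± 0.33 (SE, n = 2 pairs; adjusted p 0.0487), a 9.65-fold difference, and both of its probe sets passed. Mmp9, the gelatinase typical of macrophages, neutrophils and osteoclasts, had 9.88 against 7.59 in the ES pair and 8.84 against 7.81 in the plain pair, SACCs before controls. Its groups did not overlap, and its mean ratio of 1.66 ± 0.35 had an adjusted p of 0.135. Its other probe set had ratios of 2.03 and 0.73. Among osteoclast markers the acid phosphatase Acp5 had ratios of 3.17 and -1.16 and the fusion gene Ocstamp 2.82 and -0.43. Ocstamp was above the median only on the SACC array of the ES pair. The proton pump subunit Atp6v0d2 had ratios of -1.74 and -3.1. Ctsk (3.23 and 0.23) and Nfatc1 (0.92 and 0.51) were higher in both pairs. The 8 osteoclast markers had median ratios of 1.24 and -0.36 and summed signals of 11.79 and 10.37 in SACCs, against 10.25 and 11.75 in controls, with Calcr, the calcitonin receptor, below the median on all arrays. Their part in the Mmp9 values was not tested.

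Stromelysins 1 and 2 cut proteoglycans, laminin and fibronectin and can activate other MMPs, and both rose. Mmp3, stromelysin 1, had 11.91 in SACCs and 8.08 in controls of the ES pair, and 11.12 in SACCs and 8.06 in controls of the plain pair. The control values were nearly equal and the SACC values lay far above both. It rose by 3.45 ± 0.25 (SE, n = 2 pairs; adjusted p 0.0476), or 10.9-fold. Mmp10, stromelysin 2, had 8.58 and 8.55 in SACCs, against 6.47 and 6.5 in controls, and rose by 2.08 ± 0.16 (adjusted p 0.0476). Its pairs gave nearly the same ratio, 2.11 and 2.05. Mmp11, stromelysin 3, which is activated inside the cell by furin and is known from stroma around tumours, had 8.36 and 9.09 in SACCs, against 6.2 and 5.97 in controls. Its groups did not overlap, and its mean ratio of 2.64 ± 0.29 had an adjusted p of 0.0524.

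Collagenases, which make the first cut in fibrillar collagen, did not share this direction. Mmp13, the main interstitial collagenase of rodents, had 8.09 in SACCs and 9.03 in controls of the ES pair, and 7.82 in SACCs and 11.4 in controls of the plain pair. The SACC values were alike and both lay below both controls, but the controls differed by more than the ES pair did. Its ratios of -0.94 and -3.58 gave a mean of -2.26 ± 0.68 (SE, n = 2 pairs) with an adjusted p of 0.232. Mmp8, the collagenase stored in neutrophil granules, had 8.68 in SACCs and 7.04 in controls of the ES pair, against 6.83 in SACCs and 8.73 in controls of the plain pair. Its ratios of 1.64 and -1.9 had opposite signs, and the groups overlapped (adjusted p 0.963). Mmp1a and Mmp1b, the mouse relatives of human interstitial collagenase, were dim, with values of 1.93 to 2.76.

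Of 9 measured neutrophil markers, 4 (S100a8, S100a9, Ltf and Ngp) had the signs of Mmp8 in both pairs, and Elane and Mpo had the opposite signs. The calprotectin subunit S100a9 had ratios of 4.82 and -1.04 and the granule protein Ngp of 2.08 and -2.14. Over all 9 the medians were 0.92 and -0.49, and summed signals were 9.9 and 11.32 in SACCs, against 7.97 and 12.06 in controls. The receptor Cxcr2 was below the median on every array. In the ES pair both values of Elane and of Mpo lay below the array medians. So did the control values of S100a9 and Ngp in that pair, and ratios there are uncertain. The granule peptide Camp rose with ratios of 1.62 and 1.54 and the receptor Csf3r fell with -1.54 and -1.55 (limma adjusted p 0.0487 and 0.0495). Their part in the Mmp8 values was not tested.

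Of the other secreted MMPs, 1 fell. Mmp12, the macrophage elastase, had 9.97 in SACCs and 12.01 in controls of the ES pair, and 10.95 in SACCs and 12.9 in controls of the plain pair. It fell by 2 ± 0.16 on the log2 scale (adjusted p 0.0476), to a 3.99-fold lower level, with ratios of -2.04 and -1.95. The same 2 pairs gave medians of -1.86 and -1.97 for the 10 macrophage markers, of which 5 fell, among them the colony-stimulating factor receptor Csf1r (-1.86 and -1.64) and the F4/80 antigen Adgre1 (-2.22 and -2.46). The part of that shift in Mmp12 was not tested. Mmp19, which is widely expressed, had 7.26 and 8.5 in SACCs, against 6.75 and 8.5 in controls, a mean ratio of 0.26 ± 0.20 (adjusted p 0.606). The epithelial matrilysin Mmp7 lay close to the array medians, with 4.43 and 4.31 in SACCs, against 4.81 and 4.51 in controls (mean ratio -0.29 ± 0.16, adjusted p 0.475), and enamelysin, Mmp20, was dim.

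MMPs anchored in the membrane were led by Mmp23 and Mmp14. Mmp23, which lacks the hemopexin domain of most MMPs and is held by an amino-terminal anchor, had 10.58 and 9.56 in SACCs, against 8.86 and 7.49 in controls. It rose by 1.9 ± 0.18 (adjusted p 0.0482), and its second probe set passed as well. The mean ratio was 1.21 without control replicate 2 and 2.58 without control replicate 1. Mmp14, the collagenase of the cell surface that activates the precursor of MMP2, had 12.24 and 12.11 in SACCs, against 10.26 and 10.68 in controls. The groups did not overlap, and the mean ratio was 1.71 ± 0.21 (SE, n = 2 pairs; adjusted p 0.0587). Its other 2 probe sets had mean ratios of 2.03 and 2.09. Mmp17, held by a lipid anchor, had 6.41 and 5.7 in SACCs, against 5.29 and 4.8 in controls, and a mean ratio of 1.01 ± 0.17 (adjusted p 0.0892). Of the membrane-anchored MMPs only Mmp23 passed. Mmp15 had 4.71 and 3.99 in SACCs, against 4.07 and 3.74 in controls (ratios 0.64 and 0.25, adjusted p 0.354). Mmp16 had 5.93 and 4.91 in SACCs, against 4.75 and 5.06 in controls (ratios 1.18 and -0.15, adjusted p 0.57). Mmp24 had 5.72 and 5.16 in SACCs, against 5.92 and 5.2 in controls (ratios -0.2 and -0.04, adjusted p 0.766), and its probe sets disagreed in sign.

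**Figure D2:**
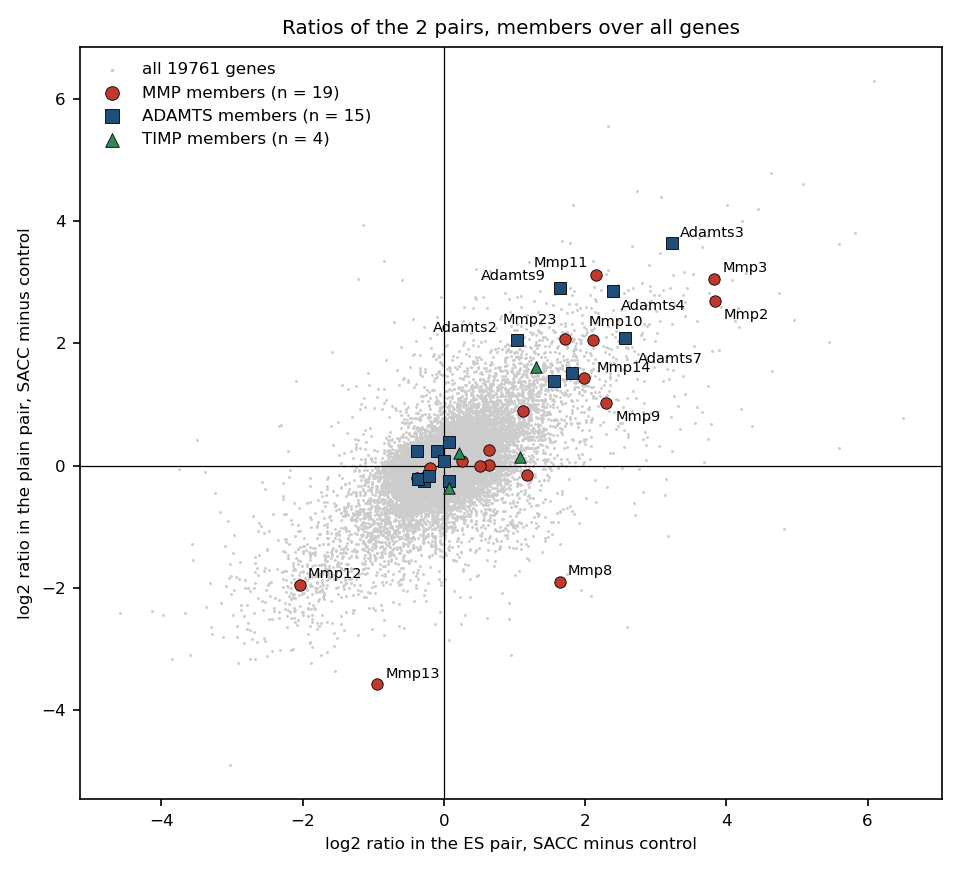
Log2 ratio of SACC to control in the ES pair (horizontal) and the plain pair (vertical) for all 19761 genes (grey) and the 38 genes by family (circles MMP, squares ADAMTS, triangles TIMP). Most labelled genes lie in the upper right, Mmp12 and Mmp13 lie in the lower left, and Mmp8 lies in the lower right.

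ADAMTS proteases of procollagen were higher in both pairs. These enzymes remove the amino-terminal propeptide from newly made fibrillar collagen. Adamts3 had 7.39 in SACCs and 4.16 in controls of the ES pair, and 7.31 in SACCs and 3.67 in controls of the plain pair. It rose by 3.44 ± 0.19 (SE, n = 2 pairs; adjusted p 0.0476), or 10.8-fold, although both control values lay below the array medians, where folds are uncertain. Its other probe set had a mean ratio of 0.57 and did not pass. Adamts2 had 10.92 and 10.3 in SACCs, against 9.89 and 8.25 in controls, with a mean ratio of 1.54 ± 0.30 (adjusted p 0.118). All 3 of its probe sets had positive ratios in both pairs.

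The ADAMTS proteoglycanases fell into genes that were higher in SACCs and genes with ratios near 0. Adamts4, an aggrecanase, had 8.55 and 8.52 in SACCs, against 6.16 and 5.66 in controls. It rose by 2.63 ± 0.20 (SE, n = 2 pairs; adjusted p 0.0476), or 6.17-fold, and both of its probe sets passed. Adamts5, the other main aggrecanase, had 9.83 and 8.73 in SACCs, against 10.21 and 8.5 in controls, and the groups overlapped. With a mean ratio of -0.08 ± 0.22 (adjusted p 0.899), its 3 probe sets had mean ratios between -0.16 and -0.08.

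Versican-cleaving Adamts9 had 7.84 and 7.91 in SACCs, against 6.19 and 5.01 in controls. Its mean ratio was 2.28 ± 0.35 (adjusted p 0.0805), while a second, dimmer probe set passed with 2.39 ± 0.19 (adjusted p 0.0476), with both control values below the array medians. The third had a mean ratio of 0.46 ± 0.19 (adjusted p 0.35). Adamts15 had 6.16 and 5.73 in SACCs, against 4.35 and 4.22 in controls, and a mean ratio of 1.66 ± 0.17 (adjusted p 0.0506). Both SACC values were above and both control values below the array medians. Adamts1, a versican-cleaving protease, had 8.29 and 7.38 in SACCs, against 8.57 and 7.63 in controls (ratios -0.28 and -0.25, adjusted p 0.496). Adamts8 had 5.3 and 5.23 in SACCs, against 5.4 and 4.99 in controls (ratios -0.1 and 0.24, adjusted p 0.884), and Adamts20 was dim.

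Among the remaining ADAMTS genes, Adamts7, a protease of cartilage oligomeric matrix protein, rose. It had 7.54 and 6.79 in SACCs, against 4.97 and 4.71 in controls, and a mean ratio of 2.33 ± 0.20 (SE, n = 2 pairs; adjusted p 0.0476), or 5.01-fold. Adamts12, which cuts the same substrate, was dim, with values of 1.77 to 2.26. Adamts6, a protease of microfibril-associated matrix, had 6.92 and 5.74 in SACCs, against 5.36 and 4.36 in controls, and a mean ratio of 1.47 ± 0.16 (adjusted p 0.0529). Its other probe set, below the median on every array, had ratios of 1.09 and 0.25. Adamts10, a close relative of Adamts6, had 6.94 and 6.67 in SACCs, against 6.86 and 6.29 in controls (ratios 0.08 and 0.38, adjusted p 0.589). Adamts16 had 5.56 and 5.62 in SACCs, against 5.92 and 5.84 in controls (adjusted p 0.47). Its 2 probe sets disagreed, with mean ratios of -0.29 and 1.15, and Adamts18 was dim.

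None of the 4 TIMPs passed the test, and 3 were higher in SACCs in both pairs. Timp1, the inducible inhibitor, had 12 and 13.16 in SACCs, against 10.7 and 11.55 in controls. Its groups did not overlap, and its mean ratio was 1.46 ± 0.17 (SE, n = 2 pairs; adjusted p 0.058). Timp2, which with MMP14 forms the complex that activates the precursor of MMP2, had 12.45 and 12.27 in SACCs, against 12.24 and 12.06 in controls, with a ratio of 0.21 in both pairs (adjusted p 0.586). All 6 of its probe sets had positive ratios in both pairs, between 0.03 and 0.68. Timp3, which binds to the matrix and also inhibits ADAM and ADAMTS proteases, had 11.04 and 9.98 in SACCs, against 9.96 and 9.84 in controls (ratios 1.08 and 0.14, adjusted p 0.401), and its 4 probe sets showed the same order of the pairs. Timp4 lay near the array medians, with 4.71 and 4.37 in SACCs, against 4.63 and 4.74 in controls (ratios 0.08 and -0.37, adjusted p 0.763), and its probe sets disagreed in sign. Set side by side, the ratios of Mmp2, Mmp14 and Timp2 were 3.84, 1.98 and 0.21 for the ES pair, and 2.7, 1.43 and 0.21 for the plain pair; differences between genes were not tested.

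The pairs differed in some of these ratios, without a test since each is 1 array against 1. In the ES pair 19 of the 38 genes were at least 2-fold higher and 1 lower, against 6.51% and 4.08% of all genes. In the plain pair 15 were higher and 3 lower (Mmp8, Mmp12 and Mmp13), against 6.01% and 5.19% of all genes. The ratio was larger in the ES pair for 13 of 19 MMPs and 2 of 4 TIMPs, and larger in the plain pair for 11 of 15 ADAMTS genes, signs included. Of all 19761 genes 9944 had a ratio larger in the ES pair, while 9640 had one larger in the plain pair. Among the MMPs counted for the ES pair is Mmp13, whose ratios were both negative and larger in size in the plain pair. Across the 38 genes, which share the arrays of each pair and are not replicates, the ratios of the pairs had a Pearson's r of 0.808 and a Spearman's rho of 0.814, against 0.661 and 0.522 over all genes.

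Of the MMP genes, 9 of the 19 lie in a single cluster on chromosome 9, and the direction changed along it. In the RefSeq annotation (GRCm38.p6) the order runs Mmp13, Mmp12, Mmp1b, Mmp3, Mmp1a, Mmp10, Mmp8, Mmp27, Mmp20 and Mmp7, with no other protein-coding gene between them. Mmp12 fell, while Mmp3 and Mmp10 rose. Mmp1b and Mmp1a, which lie between these, were dim. The protein-coding genes on either side, Dcun1d5 and Tmem123, had ratios of 0.86 and 0.08, and of 0.08 and -0.52.

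**Figure D3:**
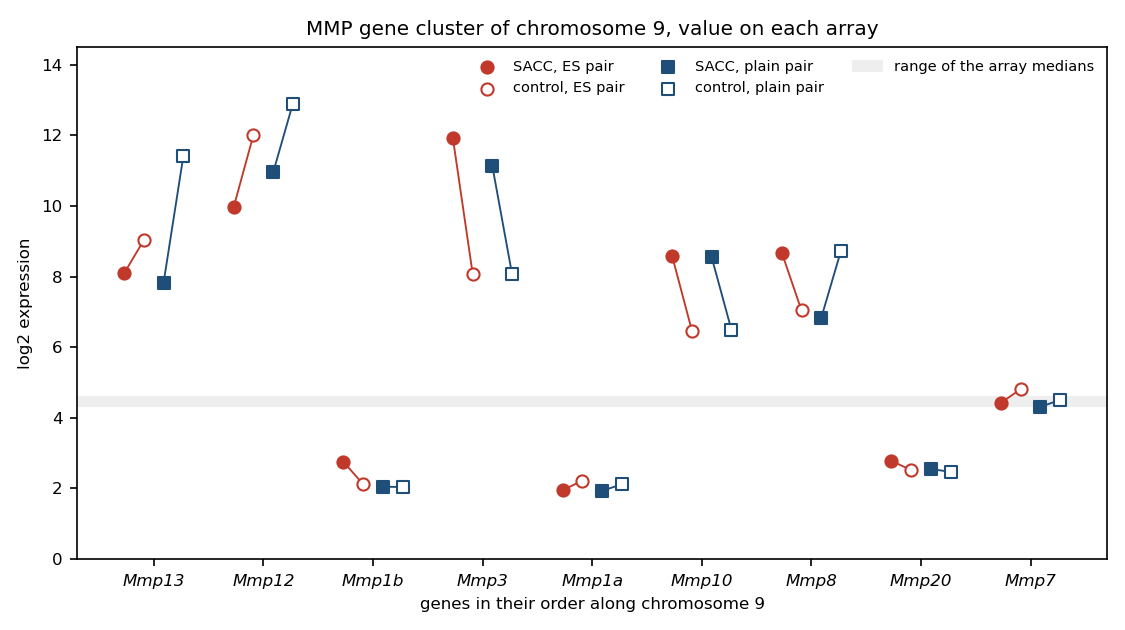
Log2 expression of the 9 measured genes of the chromosome 9 cluster on each array, in genomic order, with each SACC value left of its control and joined to it (ES pair circles, plain pair squares; the grey band spans the array medians). The lines rise to the control for Mmp13 and Mmp12 and drop to the control for Mmp3 and Mmp10, while Mmp8 does both.

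Genes of this cluster are known for short promoters with a binding site for the AP-1 factors, dimers of Fos and Jun proteins that growth factors and cytokines induce. Windows of 300 bases around annotated starts, from RefSeq's GRCm38.p6, were on hand for 25 of the 38 genes. The genes without a window all lie outside the cluster. They are Mmp2, Mmp9, Mmp16, Mmp17, Mmp19, Adamts4, Adamts5, Adamts6, Adamts7, Adamts8, Adamts10, Adamts15 and Adamts16. The AP-1 motif TGANTCA, searched on both strands, on which it reads the same, occurred in a window of 8 of 9 cluster genes (all but Mmp8) and in none of 16 genes outside the cluster. The TATA box motif TATAAA, searched on both strands, occurred in a window of 9 of 9 and of 1 of 16 (Adamts1). In Mmp12 the match began after the annotated start, and in Mmp8 it was on the reverse strand, 3 bases before the start. Counted by window, 8 of 11 in the cluster held the first motif and 9 of 11 the second. Of all 32851 windows 7.81% held the first motif and 13.6% the second. The 120 bases before the start are shown for the 4 AP-1 bearing neighbours with levels well above the array medians, since Mmp3 and Mmp10 rose, Mmp12 fell and Mmp13 had negative ratios. Capitals mark the AP-1 motif and, where the stretch holds it, the TATA box. All 4 stretches are on the plus strand.
Mmp3, chr9:7445702-7445821: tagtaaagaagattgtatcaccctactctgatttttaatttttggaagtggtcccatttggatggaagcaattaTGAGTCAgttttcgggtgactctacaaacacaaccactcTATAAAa
Mmp10, chr9:7502222-7502341: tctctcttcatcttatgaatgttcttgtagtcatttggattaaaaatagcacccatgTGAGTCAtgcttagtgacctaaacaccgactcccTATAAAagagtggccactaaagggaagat
Mmp12, chr9:7347254-7347373: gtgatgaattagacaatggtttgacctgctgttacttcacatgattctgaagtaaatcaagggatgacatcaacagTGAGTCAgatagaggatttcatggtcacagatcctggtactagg
Mmp13, chr9:7272394-7272513: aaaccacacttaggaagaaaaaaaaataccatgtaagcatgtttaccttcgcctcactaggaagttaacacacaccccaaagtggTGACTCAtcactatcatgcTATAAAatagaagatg

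The first base of the AP-1 motif lay 46 bases before the start in Mmp3, 63 in Mmp10, 44 in Mmp12 and 35 in Mmp13. Mmp12 has a second annotated start, whose window held no AP-1 motif. The AP-1 motif stood before genes that rose (Mmp3 and Mmp10), a gene that fell (Mmp12) and genes that did not pass. Its part in these directions was not tested. A match is not evidence of binding, and no binding data were part of the study.

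Factors known to act on MMP promoters were listed beside them. Of 16 such genes, none passed limma's test, and the medians were -0.23 and 0.26. In both pairs 6 were higher and 7 lower, against 30.4% and 34.7% of all genes. Fos had 10.78 and 10.6 in SACCs, against 12.88 and 12.01 in controls, a mean ratio of -1.76 ± 0.23 (SE, n = 2 pairs; adjusted p 0.066). Its partner Junb had ratios of -1.35 and -0.63, Fosb -0.84 and -0.69, and the ETS factor Etv5 -1.03 and -0.57. Both SACC values of Fos lay below both controls.

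Cytokines and growth factors that induce MMP genes went both ways. Of 12, none rose and 1 fell, against 0.936% and 1.04% of all genes, with medians of -0.54 and 0.5. Pdgfb, a mitogen of mesenchymal cells, had 5.82 and 6.08 in SACCs, against 7.94 and 7.93 in controls, and fell by 1.99 ± 0.17 on the log2 scale (adjusted p 0.0476). Oncostatin M, Osm, had ratios of -2.19 and -1.29, Tgfb3 2.36 and 1.47, and Fgf2 1.25 and 2.16. The signs of the pairs were opposite for Lif (-0.85 and 3.35), Il6 (-0.59 and 3.03) and Il1b (-2.2 and 0.24).

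Among activators, inhibitors and receptors that act with these proteases, 2 rose, where 0.936% of all genes did. Serpine2, an inhibitor of thrombin and plasminogen activators, had 10.98 and 11.46 in SACCs, against 7.93 and 8.67 in controls, and rose by 2.92 ± 0.17 (SE, n = 2 pairs; adjusted p 0.0476). It was 1 of 8 genes of the plasminogen activator system and the only one to pass. In that list Plat, the tissue plasminogen activator, had ratios of 1.66 and 2.56, Serpinb2 2.46 and 1.48, and Plau, the urokinase, 0.63 and -1.25. Among 11 other regulators and receptors, 1 rose and none fell, with medians of 0.95 and 1.46. This was A2m, alpha-2-macroglobulin, a trap for proteases of every class, with 6.86 and 6.67 in SACCs, against 3.75 and 3.79 in controls (mean ratio 3 ± 0.17, adjusted p 0.0476), the controls lying below the array medians. The protease inhibitor Tfpi2 had ratios of 4.18 and 2.26 (adjusted p 0.084), the proteoglycan Sdc1 2.54 and 1.58, and Thbs2, which takes part in the clearance of MMP2, 1.53 and 1.51 (adjusted p 0.05, just outside the threshold).

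None of 8 ADAM sheddases passed; Adam12 (2.75 and 1.82) and Adam19 (1.7 and 1.38) were higher in both pairs, and Adam8 (-1.39 and -2.14) and Adam15 (-0.53 and -0.73) lower. None of 6 measured ADAMTS-like proteins, which lack the protease domain, passed, with medians of -0.13 and -0.27. Of those above an array's median, the largest mean ratios in size were those of Adamtsl1 (0.5 and 1.78), Adamtsl5 (0.08 and -1), Adamtsl3 (-0.4 and -0.39) and Adamtsl4 (-0.32 and -0.15). None of 7 cathepsins and cystatins passed, and 6 were lower in both pairs, against 34.7% of all genes. Ctss had ratios of -1.05 and -1.1, the inhibitor Cst3 -0.7 and -1.09, and Ctsd -0.79 and -0.72. Ctsk, a collagen-degrading cathepsin of osteoclasts and fibroblasts, was the exception with 3.23 and 0.23.

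Of 10 other stromal and matrix proteases 4 rose and 1 fell, against 0.936% and 1.04% of all genes. Bmp1, which removes the carboxy-terminal propeptide of procollagens, had 10.44 and 9.46 in SACCs, against 8.33 and 7.53 in controls (mean ratio 2.02 ± 0.16, adjusted p 0.0476). The serine protease Htra1 rose by 1.96 ± 0.17 and the aminopeptidase Enpep by 4.32 ± 0.17 (limma adjusted p 0.0476 for each). Enpep had 8.3 and 8.6 in SACCs, against 3.85 and 4.41 in controls. These control values lay below and just above their array medians of 4.59 and 4.34, where folds are uncertain. The list also holds Mme, with ratios of 6.5 and 0.77, above the median only on the SACC array of the ES pair. Fap was the other gene that rose, and the aminopeptidase Anpep fell, with ratios of -1.77 and -1.63.

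Substrates were described by the same lists. Of all genes 30.4% were higher in both pairs and 0.936% rose. Of 9 aggrecanase substrates and partners 1 rose, and 6 were dim. This was versican, Vcan, with 10.58 and 10.41 in SACCs, against 7.77 and 7.85 in controls (mean ratio 2.69 ± 0.17, SE, n = 2 pairs; adjusted p 0.0476). Among the others, Dcn and Bgn had mean ratios of 1.38 ± 0.21 and 1.13 ± 0.18. Of 5 fibrillar procollagens cut by ADAMTS2 and its relatives, 4 were higher in both pairs and 1, Col1a1, rose (2.3 ± 0.16, adjusted p 0.0476). Col5a1 had ratios of 2.09 and 1.29, Col3a1 0.87 and 1.73, and Col1a2 1 and 1.45. None of 10 basement membrane and other MMP substrates passed, and 8 were higher in both pairs, among them Lamb1 (1.35 and 2.19), Col4a2 (1.65 and 1.22), Lama4 (1.09 and 1.77) and Col4a1 (1.53 and 1.08). The fibroblast markers, 4 of which are also on these substrate lists, moved the same way, and their part was not tested.

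**Figure D4:**
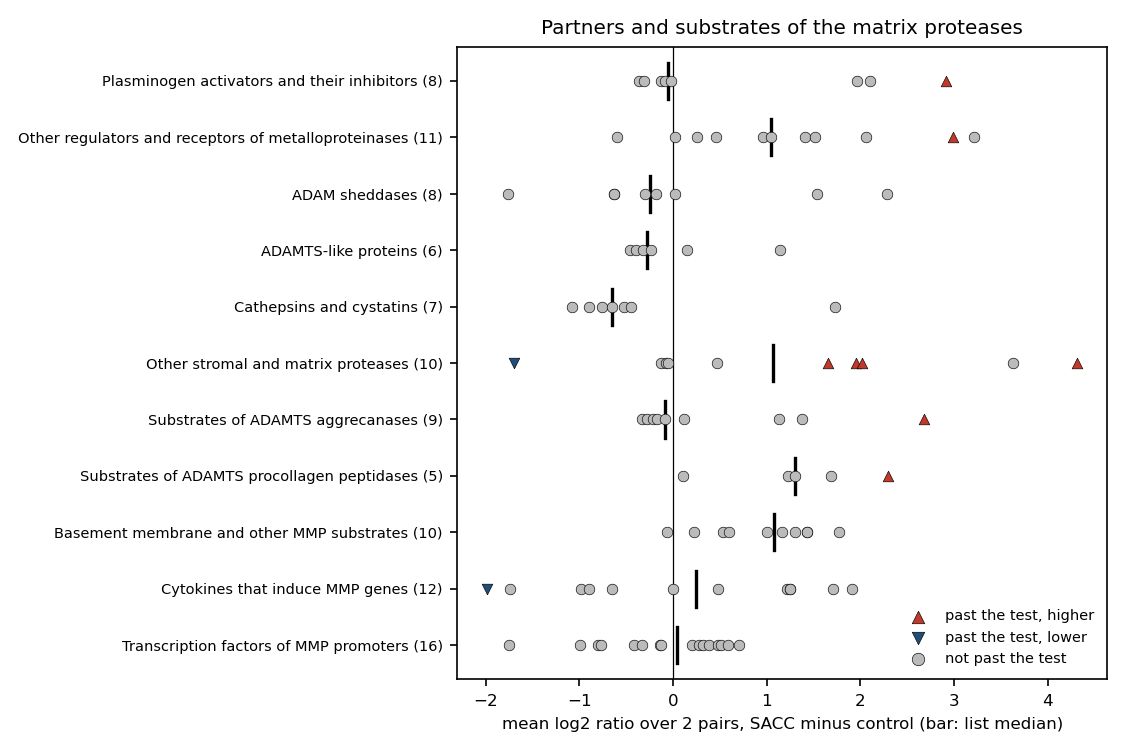
Mean log2 ratio of SACC to control over both pairs for each gene of 11 lists of partners, relatives and substrates, with the number measured in parentheses and the list median as a bar; triangles mark an adjusted p under 0.05 in limma's fit over all probe sets. Procollagens, basement membrane substrates, other regulators and other stromal proteases have medians of 1.05 to 1.3, aggrecanase substrates lie at -0.09, cathepsins and cystatins lie mostly below 0, and promoter factors spread around 0.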

How the data were processed

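Total RNA of 4 samples was measured on Affymetrix arrays. The authors deposited log2 expression values for each probe set in 2 tables, each holding 1 pair, and per the submitters' processing notes Transcriptome Analysis Console was used. How probes were summarised and normalized, and on which build, is not given in the sources used here. Sorted values differed by at most 0.14 and 0.2 within a table and 0.32 across tables, so ratios were taken within a table. A deposited table of all 4 arrays held the same values. Pairs come from the labels.

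Limma 3.58.1 (R 4.3.3, lmFit and eBayes) was fitted on all 45037 probe sets, none filtered, with group and pair as terms. The fit had 1 residual degree of freedom, with Benjamini-Hochberg adjustment at 0.05. It was also run on simulated data without pair or medium effects, which does not show how often calls in these data are false. Each ± is limma's moderated standard error, which draws on all probe sets. Gene symbols are the files'. Every gene of the 3 families is named; genes above an array's median have values, and of each of 11 partner lists up to 4 such genes with the largest mean ratio, plus all that passed, were named. Of 103 entries in those lists 102 were measured. Of the 11 marker lists, those for dendritic, endothelial, B, T and erythroid cells were not used in a result. Genes and lists were chosen with earlier results of these data known. The number of arrays limits the precision. Lif, Il6, Il1b and the single cell-type markers were named after their values were seen. The values of 1 partner-list gene are not reported here. Alternatives are listed in the closing section.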

Additional observations from a re-analysis of the deposited data

Results flagged for a closer look

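Several genes had ratios of opposite sign in the ES pair and the plain pair. Each ratio rests on 1 array against 1, so the difference was not tested. Mmp8 had the largest such difference of the 38 genes, 3.54 on the log2 scale (ES pair minus plain pair, from ratios of 1.64 and -1.9). Mmp16 followed with 1.33 (1.18 and -0.15). For Adamts5 the difference was -0.61, for Timp4 0.45, for Adamts8 -0.34 and for the dim Adamts12 0.33.

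Outside the 3 families, partner-list genes above an array's median with ratios of opposite sign are given, ES pair minus plain pair. Larger in the plain pair were Lif (-4.2), Il6 (-3.62), Il1b (-2.44), Fosl1 (-1.2), Thbs1 (-1.02), Jun (-0.85), Adam33 (-0.83), Runx1 (-0.6), Adamtsl2 (-0.45) and Dpp4 (-0.25). Larger in the ES pair were Plau (1.88), Plaur (1.46), Tll1 (1.35), Adamtsl5 (1.08) and Col2a1 (0.45). Among neutrophil markers S100a9 differed by 5.86, Ngp by 4.22, S100a8 by 3.62, Ltf by 3.44, Mpo by -1.93 and Elane by -0.89. Among osteoclast markers Acp5 differed by 4.33, Ocstamp by 3.25, Dcstamp by 2.48 and Oscar by 1.15. None of these differences was tested. Some rest on values below the array medians, among them both ES pair values of Elane and of Mpo and both plain pair values of Ocstamp.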

How the results depend on the processing

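The counts of calls depended on the setting. Without the replicate block, and with each array centred on its median, 0 of the 38 genes passed in either direction, where 7 rose and 1 fell in the fit reported (limma; smallest adjusted p over all probe sets 0.16 and 0.0636). Quantile normalization, a filter to probe sets brighter than the median one, and the mean of all probe sets of a gene gave 13 higher each, eBayes with a trend 11, robust eBayes 15 and an adjusted p under 0.10 gave 14. Each of these kept Mmp12 as the 1 lower. Calls over the whole array grew as well, from 587 of 45037 probe sets in the fit reported. They were 2045 with quantile normalization, 898 with a trend, 2623 with robust eBayes and 2188 at an adjusted p under 0.10. The filter gave 1326 of 22518 probe sets, with 31 of the 38 genes tested, and the mean of all probe sets 877 of 19761 genes. At 4-fold in place of 2-fold in both pairs 7 were higher and 0 lower, and at 1.5-fold or with quantile normalization 2 were lower. At 2-fold in both pairs 14 were higher with quantile normalization and 13 with the mean of all probe sets of a gene, against 15 as reported. The median of the mean ratios was 1.01 over the 31 genes above the median probe set, against 0.39 over all 38. Leaving out each array in turn, without the block since a pair is then incomplete, gave medians of 0.09 to 0.8. A group then holds 1 array, so only ratios are given, and the 2-fold counts cannot be formed. The sign changed for genes that had not passed, with ranges of -0.735 to 0.205 for Adamts1, -0.93 to 0.78 for Adamts5, -0.135 to 0.275 for Adamts8, -0.055 to 0.515 for Adamts10, -1.055 to 0.795 for Mmp8, -0.62 to 1.13 for Mmp19, -0.48 to 0.24 for Mmp24 and -0.315 to 0.025 for Timp4. With the mean of all probe sets Adamts16 had 0.43 and Timp4 0.0767. The cause was not tested. The 8 genes that passed kept their direction under every alternative. Their groups did not overlap, so leaving out an array could not reverse it, and the eBayes settings leave the ratios as they are. Among these genes, leaving out 1 array moved the fold by over 1.5 times for Mmp23 only (log2 ratios of 1.21 to 2.58).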

Other observations

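Some probe sets of these genes differed strongly between the tables while others of the same gene did not. A Timp2 probe set had 9.46 and 8.85 on the SACC and control arrays of the plain pair, against 5.86 and 5.49 on those of the ES pair, whereas the brightest Timp2 probe set differed by -0.18 between the tables in both groups. The dimmest Mmp14 probe set was 2.34 higher in the SACCs and 3.2 higher in the controls of the plain pair, against -0.13 and 0.42 for the brightest. Ratios within a pair were less affected, at 0.37 and 0.61 for that Timp2 probe set and 2.46 and 1.6 for that Mmp14 probe set.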
